A study of Mus musculus with 8 samples.

Results

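G protein gamma subunits are small proteins that sit, with a beta subunit, in the beta-gamma dimer of the heterotrimeric G proteins that couple receptors to their effectors. Intrauterine growth restriction (IUGR) hippocampi contained more Gng4 transcript than sham hippocampi, and whether other gamma subunit genes differed in the same way was asked of the same libraries. The members were taken by name from the gene table: Gng2, Gng3, Gng4, Gng5, Gng7, Gng10, Gng11 and Gng12, that is, 8 of the 16397 genes listed. Gng4 was selected on its rise in these very samples, so its difference is described without a test, and tests are given for the 7 other members only.

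RNA-seq was performed on whole E15.5 hippocampi of wild-type C57Bl/6J mice, with 4 IUGR samples (T1-1, T1-3, T1-4 and T1-5) and 4 sham samples (S1-4, S1-6, S3-1 and S3-4). Pregnant dams of the IUGR group carried an osmotic pump that delivered U-46619, an analog of thromboxane A2 that raises maternal blood pressure, from E12.5, and dams of the sham group carried a pump with vehicle from the same day. Both sexes were dissected, and every IUGR sample carries the prefix T1. What the prefixes stand for is not given in the sources used here, so an effect of whatever T1 marks cannot be told apart from IUGR, and p values measure the spread between these 8 samples. Total counts ranged from 11212632 to 16672463 per sample, of which 10628592 to 15707495 fell on the tested protein-coding genes. CPM values are counts per 1000000 counts on those tested genes, after TMM scaling, and 1 count equals 0.0615 to 0.0924 CPM.

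The beta-gamma dimer is released when an activated receptor exchanges the nucleotide on the alpha subunit. Released dimers open GIRK potassium channels, inhibit presynaptic calcium channels of the Cav2 class, and act on adenylyl cyclases, phospholipase C beta and a phosphoinositide kinase. The gamma subunit carries a prenyl lipid at its C terminus, which holds the dimer at the membrane, and different gamma subunits are enriched in different cells. In brain, Gng2 is widely used, Gng3 and Gng4 are mostly neuronal, and Gng7 is known for its pairing with the olfactory-type alpha subunit Gnal.

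The 8 genes are scattered over the genome. In the GRCm38 build, Gng2 lies on chr14:19872559-19977627, Gng3 on chr19:8836933-8839194 and Gng7 on chr10:80948624-81014945, all on the minus strand. On the plus strand are Gng5 (chr3:146499807-146505572), Gng10 (chr4:59035088-59041903), Gng11 (chr6:4003904-4008445), Gng12 (chr6:66896397-67021350) and Gng4 (chr13:13784059-13827896). The coding transcript of Gng4 has 4 exons, and the 225 coding bases are divided between the third and the last exon. The last exon holds another 2524 bases that are not coded into protein, so most counts of this gene can come from outside its coding sequence. A short stretch of the transcript, of 119 bases at most, matches 221 other genes at 90% identity or more, and reads from it may not be assigned uniquely. Since Gng4 is the member with the separated groups, the stretch just upstream of the start site that RefSeq gives at position 13784307 is shown here, from chr13:13784108-13784306 on the plus strand of GRCm38.p6. Capitals mark TGACG, the core letters of the cAMP response element, which begin 51 and 40 bases upstream of that start site.

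Gng4: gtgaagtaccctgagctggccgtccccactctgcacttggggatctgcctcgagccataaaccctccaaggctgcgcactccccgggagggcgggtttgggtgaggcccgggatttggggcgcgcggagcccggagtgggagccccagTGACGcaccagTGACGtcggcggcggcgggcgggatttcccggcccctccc

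TGACG was searched on both strands in the RefSeq promoter windows of 300 bases, and 20.8% of 32851 windows hold it, while 5.01% hold it at least 2 times. Windows were found for all members but Gng11. For Gng4 the letters lie in the window around the start site shown above, whereas its window further upstream does not hold them. Apart from Gng4, the letters occur in a single window of Gng7, with 1 match. Binding at these letters was not measured, and the matches are a description of the sequence.

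Gng4 was higher in each IUGR hippocampus than in each sham hippocampus. Sham samples held 3.51 (S1-4), 7.27 (S1-6), 2.82 (S3-1) and 1.50 CPM (S3-4) of Gng4. IUGR samples held 9.82 (T1-1), 24.6 (T1-3), 12.4 (T1-4) and 15.3 CPM (T1-5). The raw counts behind these values ran from 21 to 84 in sham and from 131 to 401 in IUGR samples. The group means were 15.5 ± 6.47 CPM in IUGR and 3.78 ± 2.48 CPM in sham (SD, n = 4 each), and the log2 fold change was 2.05 (SE 0.45, 95% interval 1.04 to 3.05), a 4.14-fold difference. Across the tested protein-coding genes, 2.08% had every IUGR value above every sham value. A log2 fold change at least as large as that of Gng4 was found for 25 genes, or 0.182%, with Gng4 itself counted among them. These figures place the gene among all genes and test nothing, since it was picked for this difference. Within the sham group, the S1 samples averaged 5.39 CPM and the S3 samples 2.16 CPM. The S1 mean leaned on S1-6 (7.27 CPM), the only sham sample with high Xist, a mark of female tissue. Prefix and sex are therefore not separated in this contrast. The log2 fold change was 1.52 against the S1 samples alone and 2.88 against the S3 samples alone, and it was 1.77 without T1-3 and 2.62 without S1-6.

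**Figure D1:**
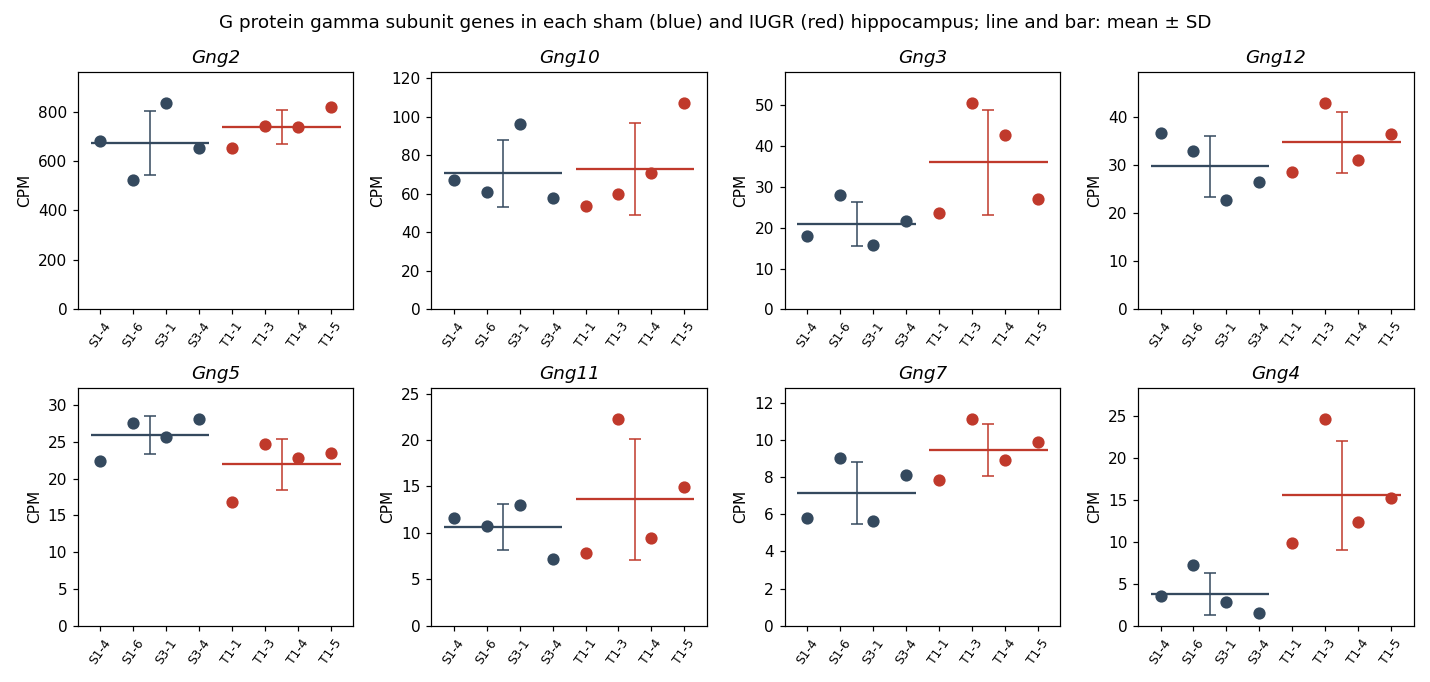
Expression of the 8 gamma subunit genes in CPM (y axes, linear, from 0) in each sham (blue) and IUGR (red) hippocampus; lines and bars are the group mean ± SD of 4 samples. Gng4, with sham points from 1.50 to 7.27 CPM and IUGR points from 9.82 to 24.6 CPM, is the one panel in which the colors do not overlap.

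None of the 7 other members differed between the groups after adjustment over all tested genes, where 1.55% of genes had an adjusted p of at most 0.05 in edgeR. The count was also 0 with DESeq2 and limma-voom. At an unadjusted p below 0.05, 1 of the 7 (Gng3, higher in IUGR) passed in edgeR, beside 4.46% of all tested genes that passed as higher and 6.62% that passed as lower. Of the 7 log2 fold changes 6 were positive, against 44.5% of all tested genes. The median log2 fold change of these 7 was 0.23, the value of Gng12, beside −0.02 over all genes tested.

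Gng3, a neuronal gamma subunit, came nearest to Gng4. Sham samples held 18.0 (S1-4), 28.0 (S1-6), 15.8 (S3-1) and 21.7 CPM (S3-4) of Gng3, and IUGR samples 23.5 (T1-1), 50.5 (T1-3), 42.7 (T1-4) and 27.1 CPM (T1-5). The highest sham sample, S1-6, exceeded the lowest 2 IUGR samples, so the groups overlapped. Gng3 averaged 35.9 ± 12.8 CPM in IUGR and 20.9 ± 5.34 CPM in sham (SD, n = 4 each). The log2 fold change of Gng3 was 0.78 (SE 0.27, 95% interval 0.18 to 1.38), with an unadjusted p of 0.0154 and an adjusted p of 0.244 in edgeR's test. Without T1-3 the value was 0.61 and the unadjusted p no longer fell below 0.05, which was also the case against the S1 samples alone (0.64, unadjusted p = 0.107 in edgeR). Gng3 shares 398 exon bases with Bscl2, which lies on the opposite strand, and the strand setting of the counting is not given in the sources used here.

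Gng7 and Gng12 leaned the same way by less. Gng7 values were 5.82 (S1-4), 9.00 (S1-6), 5.65 (S3-1) and 8.13 CPM (S3-4) in sham, and 7.87 (T1-1), 11.1 (T1-3), 8.93 (T1-4) and 9.89 CPM (T1-5) in IUGR. The 2 highest samples were IUGR samples, while S1-6 and S3-4 lay above the lowest IUGR sample. Gng7 had a log2 fold change of 0.40 (SE 0.23, 95% interval −0.10 to 0.90, edgeR adjusted p = 0.641). Gng12, a gamma subunit found in many tissues, was measured at 36.7 (S1-4), 33.0 (S1-6), 22.7 (S3-1) and 26.5 CPM (S3-4) in sham and at 28.6 (T1-1), 43.0 (T1-3), 31.0 (T1-4) and 36.5 CPM (T1-5) in IUGR. S1-4 exceeded all IUGR samples but T1-3. Its log2 fold change was 0.23 (SE 0.19, 95% interval −0.20 to 0.65, edgeR adjusted p = 0.923), and it moved from −0.00 against the S1 samples alone to 0.52 against the S3 samples alone.

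Gng11 is a gamma subunit that carries a farnesyl instead of the more common geranylgeranyl lipid. It was present at 11.6 (S1-4), 10.7 (S1-6), 12.9 (S3-1) and 7.13 CPM (S3-4) in sham and at 7.79 (T1-1), 22.2 (T1-3), 9.44 (T1-4) and 15.0 CPM (T1-5) in IUGR. The IUGR group spanned the whole sham range from 7.79 CPM upward, and its mean rested on T1-3. The log2 fold change of Gng11 was 0.36 (SE 0.33, 95% interval −0.37 to 1.10, edgeR adjusted p = 0.955), and it was 0.05 without T1-3. T1-3 also had the highest value of Gng3, Gng4, Gng7 and Gng12 in the series, and the highest summed level of pericyte and meningeal fibroblast markers (2958 CPM, against 305 to 1002 CPM in the other IUGR samples and 424 to 713 CPM in sham). T1-3 was also the highest sample for the summed markers of Cajal-Retzius cells (1256 CPM), endothelium (372 CPM), microglia (158 CPM) and erythroid cells (2162 CPM). Other samples were highest for those of neurons in general, interneurons, glutamatergic neurons, radial glia and choroid plexus. The part of any of these cells in the values of T1-3 was not tested.

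The most abundant members differed little. Gng2 stood at 682 (S1-4), 523 (S1-6), 835 (S3-1) and 654 CPM (S3-4) in sham and at 654 (T1-1), 740 (T1-3), 737 (T1-4) and 818 CPM (T1-5) in IUGR. Both the highest and the lowest of the 8 values belonged to sham samples. The log2 fold change of Gng2 was 0.13 (SE 0.15, 95% interval −0.21 to 0.47, edgeR adjusted p = 1.00), which leaves room for a rise of up to 1.39-fold. Gng10, a broadly transcribed member, gave 67.4 (S1-4), 61.0 (S1-6), 96.2 (S3-1) and 57.9 CPM (S3-4) in sham and 53.6 (T1-1), 60.0 (T1-3), 71.0 (T1-4) and 107 CPM (T1-5) in IUGR. Each group had 1 high sample, S3-1 and T1-5. Its log2 fold change was 0.05 (SE 0.24, 95% interval −0.48 to 0.57, edgeR adjusted p = 1.00), and without T1-5 it was −0.20. Gng10 shares 946 exon bases with the overlapping model Gm20503 on the same strand, and the counts of the pair had a ratio of 0.996 to 1.01 in each sample, so the same reads may stand behind both rows.

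Gng5, a broadly transcribed gamma subunit that neural progenitors also use, was the single member with a negative log2 fold change. It was measured at 22.4 (S1-4), 27.5 (S1-6), 25.7 (S3-1) and 28.1 CPM (S3-4) in sham and at 16.9 (T1-1), 24.6 (T1-3), 22.8 (T1-4) and 23.4 CPM (T1-5) in IUGR. S1-4 lay below 3 of the 4 IUGR samples, whereas the other 3 sham samples lay above all of them. The log2 fold change was −0.24 (SE 0.16, 95% interval −0.60 to 0.12, edgeR adjusted p = 0.795). It was negative under each of the 17 alternatives run. Near-identical copies of Gng5 exist in the genome, among them Gng5-ps with 98.5% identity over 205 bases, and they have no row of their own in the table, so reads of the gene and its copies may not be separable.

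**Figure D2:**
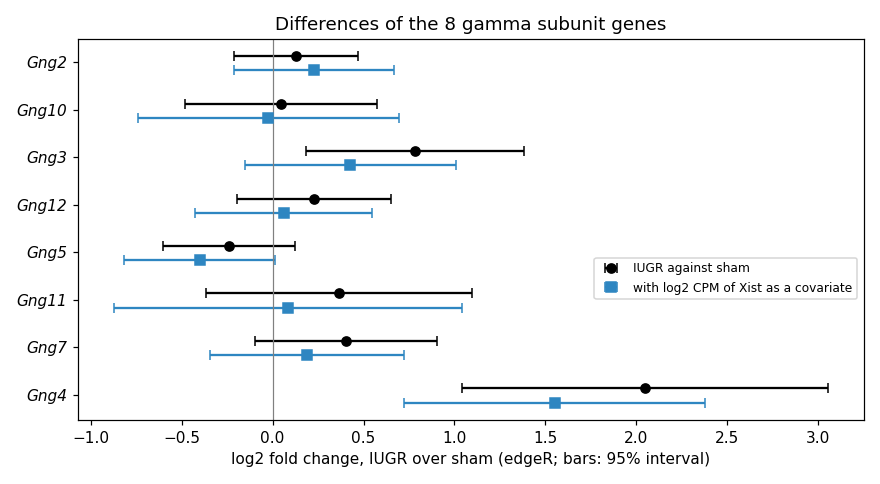
Log2 fold change (x axis, IUGR over sham, edgeR) of each gamma subunit gene, with its 95% interval, from the comparison of 4 IUGR with 4 sham samples (black circles) and from a fit that also holds the log2 CPM of Xist (blue squares). The black interval of Gng4 runs from 1.04 to 3.05, and those of Gng2, Gng5, Gng7, Gng10 and Gng12 end below it.

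Set side by side, the intervals of the members overlapped with that of Gng4 for some genes only. The upper ends for Gng2 (0.47), Gng5 (0.12), Gng7 (0.90), Gng10 (0.57) and Gng12 (0.65) lay below the lower end for Gng4 (1.04), whereas the intervals of Gng3 (up to 1.38) and Gng11 (up to 1.10) reached into that of Gng4. The difference between members was not tested, because Gng4 was chosen by it. On the log2 CPM scale, the value of Gng4 minus the mean of the 7 other members was −3.33 ± 0.83 in sham and −1.43 ± 0.32 in IUGR samples (SD, n = 4 each), and the sample ranges, −4.30 to −2.29 in sham and −1.64 to −0.96 in IUGR, did not meet. The mean log2 CPM of the 7 others was 5.32 ± 0.28 in IUGR and 5.10 ± 0.07 in sham. Because Gng4 was chosen by its rise, the gap between the ranges of the subtracted values is likewise a description and no support.

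The order of the genes by level was read per length, as CPM per kilobase of exon. In sham hippocampi Gng2 led with 153 ± 29.2 CPM per kilobase, followed by Gng10 (53.8 ± 13.3), Gng3 (12.7 ± 3.25), Gng11 (11.5 ± 2.71), Gng5 (9.37 ± 0.93), Gng12 (6.29 ± 1.33), Gng7 (1.89 ± 0.44) and Gng4 (1.13 ± 0.74). The sample ranges of Gng3 and Gng11, of Gng11 and Gng5, and of Gng7 and Gng4 overlapped, so these neighbors could not be ordered beyond their spread, while the steps from Gng2 to Gng10, from Gng10 to Gng3, from Gng5 to Gng12 and from Gng12 to Gng7 were free of overlap. Of the remaining gamma genes, Gngt2 (0.616 CPM per kilobase in sham) and Gng8 (0.331) were at the bottom, with Gng8 too low to be tested, and Gng13 and Gngt1 were not analysed here. In IUGR hippocampi the order of the first 6 was the same, and Gng4, at 4.65 ± 1.94 CPM per kilobase, stood above Gng7 at 2.50 ± 0.37.

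Gng4 was a minor component of the gamma transcript pool in both groups. Per length, Gng2 made up 59.6% of the summed level in IUGR and 60.9% in sham, and Gng10 19.4% and 21.2%. Gng4 supplied 1.62% ± 0.57 of the sum in IUGR samples, with a range of 1.28 to 2.47%, and 0.474% ± 0.37 in sham samples, with a range of 0.193 to 1.01% (SD, n = 4 each). The sham mean leaned on S1-6, and without that sample it was 0.297%. The summed level was 283 ± 40.0 CPM per kilobase in IUGR and 251 ± 38.6 in sham, with overlapping ranges. The totals overlapped between the groups and the shares of Gng4 did not. Because Gng4 was chosen by its rise, the separation of its shares is a description and no support for a difference from the family.

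**Figure D3:**
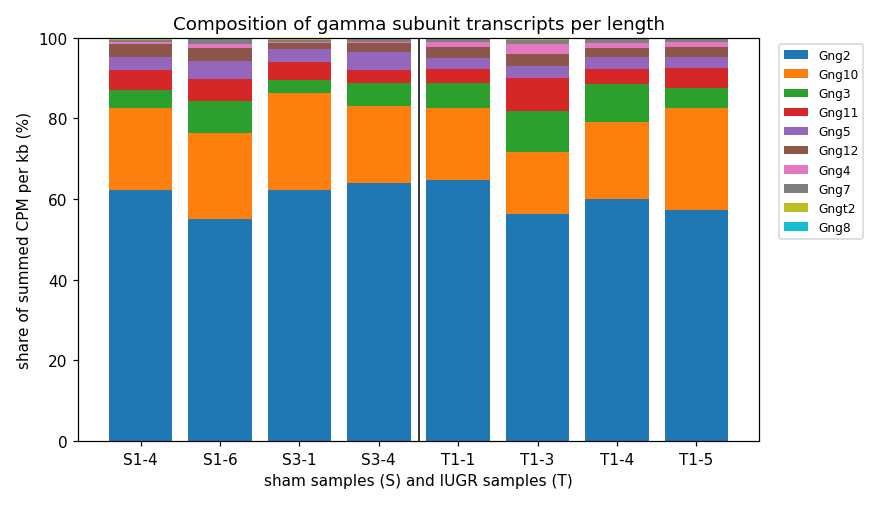
Share of each gamma subunit gene in the summed CPM per kilobase (y axis, percent) of each sample (x axis, sham left of the line, IUGR right of it), stacked from the highest IUGR level at the bottom to the lowest at the top. Gng2 and Gng10 fill most of each bar, and Gng4 is a thin band of at most 1.01% in sham and at least 1.28% in IUGR samples.

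The libraries differed in the sex of the tissue, as read from Xist, which is transcribed from the inactive X chromosome of female cells, and from the Y-linked gene Ddx3y. Xist stood at 1012, 948 and 1593 CPM in T1-3, T1-4 and T1-5 and at 1363 CPM in S1-6, and at 2.12 to 5.85 CPM in the 4 remaining libraries, in which Ddx3y reached 115 to 224 CPM. The IUGR group therefore had 3 Xist-high samples of 4, and the sham group 1 of 4. Among Xist-high samples, Gng4 was 12.4 to 24.6 CPM in IUGR (n = 3) and 7.27 CPM in the single sham sample, a ratio of 2.40 between the means. Among Ddx3y-high samples it was 9.82 CPM in the single IUGR sample and 1.50 to 3.51 CPM in sham (n = 3), a ratio of 3.76. Since no IUGR value of Gng4 overlapped the sham values, its direction within these classes was fixed by the choice of the gene. Gng4 was also higher in Xist-high than in Ddx3y-high samples, by 2.78 times within sham and 1.78 times within IUGR. With the log2 CPM of Xist in the model, a fit chosen after the data were seen, the log2 fold change of Gng4 was 1.55 (SE 0.37, 95% interval 0.72 to 2.38).

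Gng3 was also higher in Xist-high than in Ddx3y-high samples, by 1.51 times within sham and 1.71 times within IUGR. In the Xist-high class, the sham sample (28.0 CPM) lay inside the IUGR range of 27.1 to 50.5 CPM, and in the Ddx3y-high class the IUGR sample (23.5 CPM) lay just above the sham range of 15.8 to 21.7 CPM. With Xist in the model, the log2 fold change of Gng3 was 0.43 (SE 0.26, unadjusted p = 0.131, adjusted p = 0.999 in edgeR), and those of Gng7, Gng11 and Gng12 were 0.19, 0.08 and 0.06. Gng5 had a log2 fold change of −0.40 in that fit (unadjusted p = 0.0574, adjusted p = 0.762 in edgeR). With 1 sample in a class of each group, sex and IUGR can be separated only weakly here.

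**Figure D4:**
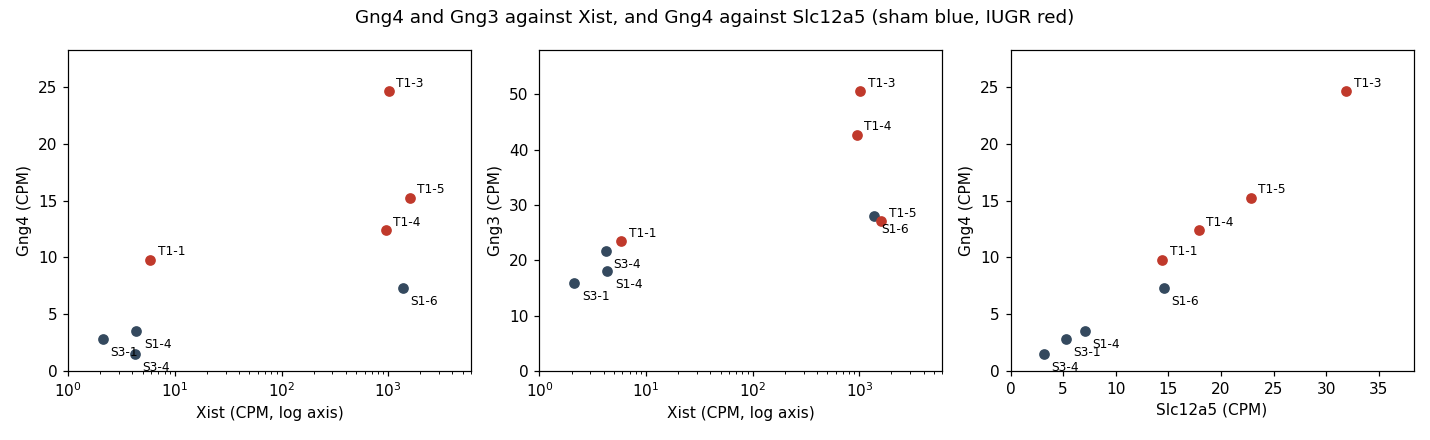
Gng4 (left) and Gng3 (middle) against Xist on a log axis, and Gng4 against Slc12a5 on linear axes, all in CPM, with 1 point per sham (blue) or IUGR (red) hippocampus. Xist is high in 3 IUGR samples and 1 sham sample, and in the middle panel the Xist-high sham point of Gng3 (28.0 CPM) lies within the IUGR points (27.1 to 50.5 CPM). In the right panel the 8 points lie close to a line.

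Summed levels of the markers of some cell types differed between the groups as well. In such whole-tissue libraries fewer cells of a type and less RNA per cell cannot be told apart. The 14 general neuron markers summed to between 5722 and 6064 CPM in IUGR samples and to between 4138 and 5086 CPM in sham samples, ranges that did not meet. All 14 had a positive log2 fold change (median 0.46), 8 had an unadjusted p below 0.05 (4.46% of all genes tested, as higher) and 0 passed adjustment in edgeR. The 15 choroid plexus markers summed to between 57.0 and 1342 CPM in IUGR samples and to between 5599 and 12262 CPM in sham samples; all 13 that were tested were lower (median log2 fold change −3.03), and 3 passed adjustment, beside 1.55% of all genes. Of these 13 genes, 11 had every IUGR value below every sham value, beside 5.06% of all genes. Markers of interneurons (548 to 1259 CPM in IUGR, 536 to 1183 in sham), glutamatergic neurons (1262 to 1460 and 1063 to 1715), radial glia (3262 to 3957 and 3431 to 4229), Cajal-Retzius cells (474 to 1256 and 311 to 930), endothelium (215 to 372 and 202 to 298), microglia (58.6 to 158 and 59.7 to 86.8) and erythroid cells (667 to 2162 and 1069 to 1631) overlapped between the groups, as did those of pericytes and meningeal fibroblasts given above. Beside 44.5% of all genes, positive log2 fold changes were found for 7 of 8 endothelial markers (median 0.54, 3 with an unadjusted p below 0.05), 9 of 9 pericyte and meningeal markers (median 1.12, 1 below 0.05), 8 of 8 microglial markers (median 0.30) and 8 of 8 erythroid markers (median 0.43). Glutamatergic neuron markers had 4 positive and 6 negative values (median −0.05, 2 with an unadjusted p below 0.05, both lower in IUGR), radial glia markers 4 and 6 (median −0.16), interneuron markers 8 and 2 (median 0.11) and Cajal-Retzius markers 4 and 2 (median 0.25, 1 below 0.05, higher in IUGR). In edgeR 0 genes of these 8 lists passed adjustment. No marker in these lists was at 0 in all samples. The part of tissue make-up in the values of Gng4 was not tested.

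The genes whose pattern was most like that of Gng4 were sought among the 11906 tested genes whose counts averaged 50 or more, by Pearson r of log2 CPM over the 8 samples. Slc12a5, the neuronal chloride exporter KCC2, had r = 0.99, and r = 0.99 again once the group means were removed, so it followed Gng4 within the groups too. It measured 7.03 (S1-4), 14.5 (S1-6), 5.26 (S3-1) and 3.14 CPM (S3-4) in sham and 14.4 (T1-1), 31.9 (T1-3), 17.9 (T1-4) and 22.8 CPM (T1-5) in IUGR, the same order of samples as for Gng4 except that S1-6 and T1-1 changed places. Next came Tmem130, a transmembrane protein (0.99, and 0.98 with group means removed), Syt1, the calcium sensor of synaptic vesicles (0.99 and 0.97), Slc27a2, a fatty acid transporter and acyl-CoA synthetase (0.99 and 0.97), and Vsnl1, a neuronal calcium sensor (0.99 and 0.95). With group means removed, Kcnt1, a sodium-activated potassium channel, took the place of Vsnl1 among the first 5 (0.96). These 8 points share their libraries, their groups and the Xist pattern, and the highest of many correlations is high by choice. Syt1 is also 1 of the 14 neuron markers above. No other gamma subunit gene was among the leading genes, although some ranked high: by r over the 8 samples, Gng3 stood at percentile 96.8 of these genes, Gng7 at 95.1, Gng12 at 93.7 and Gng11 at 90.4. The values of r with Gng4 were 0.80 for Gng3, 0.73 for Gng7, 0.68 for Gng12, 0.58 for Gng11, 0.15 for Gng2, 0.05 for Gng10 and −0.36 for Gng5. With group means removed they were 0.55, 0.45, 0.69, 0.69, −0.32, 0.03 and 0.32 in the same order, so that Gng2 and Gng5 changed sign, and Gng11 and Gng12 stood at percentiles 96.2 and 96.1.

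The partners of the gamma subunits were read from lists of the pathway, and 0 genes passed adjustment in any of these lists but that of the glutamate receptors. The counts at an unadjusted p below 0.05 stand beside the 4.46% of all tested genes that passed as higher and the 6.62% that passed as lower. Of the beta subunits, which form the dimer with gamma, 4 were tested, and all 4 log2 fold changes were positive, none with an unadjusted p below 0.05 (median 0.15). Gnb1, the most abundant, averaged 667 ± 129 CPM in IUGR and 582 ± 187 CPM in sham (SD, n = 4 each). Of 12 alpha subunits tested, 10 had positive values (median 0.14), and Gnas, which encodes the stimulatory alpha subunit and led the list, averaged 917 CPM in IUGR and 872 CPM in sham.

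Of the 12 alpha subunit genes, 3 had an unadjusted p below 0.05, all as higher (4.46% of all genes tested), and the same 3 had ranges without overlap (2.08% of all genes). Gnaz, which inhibits adenylyl cyclase, held 26.6 to 38.9 CPM in sham and 43.3 to 62.0 CPM in IUGR samples, without overlap (log2 fold change 0.68, SE 0.17, edgeR adjusted p = 0.0891). Gnal, the olfactory-type stimulatory subunit that pairs with Gng7, held 9.05 to 27.5 CPM in sham and 28.8 to 47.8 CPM in IUGR (0.94, SE 0.31, edgeR adjusted p = 0.223). Gnaq, a subunit that activates phospholipase C beta and is named here after its values were seen, averaged 213 ± 11.3 CPM in IUGR and 175 ± 12.0 CPM in sham (0.29, SE 0.11, edgeR adjusted p = 0.294). None of the 3 passed adjustment. The adjusted p of Gnaz ran from 0.00618 to 0.515 over the 17 alternatives and was past the threshold in 1 of them.

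Effectors of the dimer had mostly positive values, beside 44.5% of all genes. The list of adenylyl cyclases, which make cyclic AMP, gave 8 of 9 positive values (median 0.44), and 2 had an unadjusted p below 0.05. Adcy1, a calcium-stimulated cyclase of neurons and the most abundant, averaged 110 ± 48.5 CPM in IUGR and 53.8 ± 18.9 CPM in sham with overlapping ranges (log2 fold change 1.03, SE 0.35, edgeR adjusted p = 0.239), and Adcy2 had a log2 fold change of 0.71 (edgeR adjusted p = 0.390). The list of GIRK channels gave 3 of 4 positive values (median 0.31, led by Kcnj3 at 15.1 CPM in IUGR and 14.2 in sham), Cav2 channels 3 of 3 (median 0.40, led by Cacna1e at 71.1 and 53.0 CPM), and phospholipase C beta with the subunits of phosphoinositide 3-kinase gamma 5 of 6 (median 0.32, led by Plcb1 at 121 and 98.7 CPM). None in those lists had an unadjusted p below 0.05.

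Regulators went both ways. The R7 class of RGS proteins carries a gamma-like domain that binds Gnb5, and with its anchors it had 4 positive and 3 negative values of 7 (median 0.07, led by Rgs7bp at 9.30 CPM in IUGR and 8.35 in sham), with an unadjusted p below 0.05 for 2 as higher and 2 as lower. Rgs7 averaged 6.39 CPM in IUGR and 3.21 CPM in sham (log2 fold change 1.00, SE 0.33, edgeR adjusted p = 0.219), and Gpr158, a receptor that anchors Rgs7 at the membrane, 7.38 and 3.45 CPM (1.10, SE 0.34, edgeR adjusted p = 0.182). Rgs6 and Rgs11 had negative values, −0.93 and −1.09, with adjusted p of 0.382 and 0.443 in edgeR. Of the receptor kinases, which are drawn to the membrane in part by the dimer, 3 of 5 were positive (median 0.06, led by Grk6), and Grk4 averaged 1.82 CPM in IUGR and 3.74 CPM in sham without overlap (−1.03, SE 0.34, edgeR adjusted p = 0.222). Chaperones of G protein subunits (4 tested, median 0.01, led by Pdcl) and the enzymes that add and trim the prenyl group (6 tested, median −0.00, led by Fnta) had no member with an unadjusted p below 0.05.

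Metabotropic glutamate receptors, which signal through these G proteins, had 7 positive values of 7 (median 0.98), and 5 had an unadjusted p below 0.05, beside 4.46% of all genes tested that passed as higher. Grm5 averaged 81.1 ± 31.3 CPM in IUGR and 28.6 ± 10.8 CPM in sham (log2 fold change 1.50, SE 0.32, edgeR adjusted p = 0.0493), the single gene of the pathway lists past the threshold of adjustment, which 1.55% of all genes passed, and over the 17 alternatives its adjusted p ran from 0.000129 to 0.414 and was past the threshold in 4 of them. The log2 fold changes of Grm8, Grm7 and Grm3 were 1.34, 0.98 and 0.74.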

How the data were processed

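Total RNA of E15.5 hippocampi, depleted of ribosomal RNA, was sequenced as single reads from a stranded kit. The authors aligned reads to GRCm38 and deposited raw counts per gene, without normalization; their processing notes name Novoalign 2.8, and the counting program and its strand setting are not given in the sources used here. Gene types, positions and exon lengths came from GENCODE M21 (GRCm38). The 13707 protein-coding genes whose counts averaged from 10 to below 50000 entered edgeR 4.0.16 in R 4.3.3 (TMM, quasi-likelihood test), and p values were adjusted over them by Benjamini-Hochberg. Calls needed an adjusted p no larger than 0.05 together with an absolute log2 fold change of 1 or more. CPM rests on the summed counts of the tested genes scaled by TMM, and log2 CPM adds a prior count of 2. With 4 samples per group, 1 column per sample was used. The code was tested on simulated data.

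The members and the gene lists were chosen with earlier results of these data known. Named were all members, the most abundant gene of each pathway list with any gene at an unadjusted p under 0.05 and an absolute log2 fold change of at least 0.5, and the 5 genes most like Gng4; 1 gene that this rule names is not reported here. Alternatives were DESeq2 1.42.0 (size factors and Wald test), upper-quartile scaling, limma-voom (limma 3.58.1), other count filters, each sample left out, S1 or S3 samples alone and, chosen after seeing the data, Xist as a covariate.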

Additional observations from a re-analysis of the deposited data

How the results depend on the processing

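In edgeR 200 of 13707 genes were called (14 higher, 186 lower in IUGR). The count was 425 with DESeq2's Wald test (84 higher, 341 lower), 328 with limma-voom, 73 with a mean count of at least 50, 41 (without S1-4) to 298 (without T1-5) with 1 sample left out (0 higher without S1-4, 27 higher and 101 lower without S1-6), 0 against the S1 samples alone (1053 at an unadjusted p below 0.05), 2 against the S3 samples alone, and 0 with Xist as a covariate (966 at an unadjusted p below 0.05). The cause was not tested, except that fewer samples or genes entered some of these fits. The log2 fold change of Gng4, whose sign the choice of the gene fixes, was 1.77 to 2.62 with 1 sample left out, 1.52 against the S1 samples alone and 2.88 against the S3 samples alone. Of the 7 other members, 0 passed adjustment in any alternative; the adjusted p of Gng3 ran from 0.0941 to 0.999. At an unadjusted p below 0.05, 0 of the 7 passed without T1-3, against the S1 samples alone or with Xist as a covariate, Gng3 and Gng7 passed without S1-6, and Gng3 and Gng12 against the S3 samples alone. Gng10 was negative in 4 of the 17. The median log2 fold change of all genes was −0.02 with TMM and 0.00 with DESeq2 size factors. No paired analysis was possible because the replicate numbers follow accession order and nothing in the labels ties an IUGR sample to a sham sample. Low counts limit Gng8, which was not tested.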

Other observations

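Within the gamma family, with group means removed, Gng2 varied with Gng10 (r = 0.75 over 8 samples) and Gng3 with Gng7 (r = 0.75), while Gng2 and Gng3 had r = −0.41, and Gng2 and Gng7 r = −0.50. These values describe 8 libraries and carry no test. The abundance ratio of the highest to the lowest sample was 16.5 for Gng4 over all samples, 4.86 within sham and 2.51 within IUGR, and between 1.60 (Gng2) and 3.19 (Gng3) for the 7 other members over all samples.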
